A study of Mus musculus with 24 samples.

Results

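The livers of high-fat diet (HFD)-fed *Ogg1-/-* mice were compared with those of their HFD-fed WT counterparts, across all genes and pathways on the array. These are 12 of the 24 livers of the study, chosen by their titles: 6 *Ogg1-/-* and 6 WT livers on the HFD. All were from male C57BL6 mice, housed 1 to a cage from 10 weeks of age by the labels (the study's methods give a later age), with free access to the diet for 10 weeks. The *Ogg1-/-* mice lack the gene in every tissue, and the line was backcrossed to C57BL/6J and kept by matings of *Ogg1+/-* mice. The other 12 livers are from 6 *Ogg1-/-* and 6 WT mice given chow in place of the HFD, and are used here as a second look at each gene. RNA of whole liver was hybridised to a Mouse Gene ST array, 1 array per mouse. The sources used here do not give the hour at which livers were collected.

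OGG1 is the DNA glycosylase that removes oxidised guanine from nuclear and mitochondrial DNA, the opening step of base excision repair. The liver of a mouse on a fat-rich diet takes up fatty acids and either burns them in mitochondria and peroxisomes, stores them as triglyceride in lipid droplets, or exports them in very-low-density lipoprotein (VLDL). These routes are set in part by PPAR-alpha and PGC-1alpha, which drive oxidation, by the energy sensor AMPK, and by insulin acting through SREBP-1c, which drives fat synthesis.

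Levels are the deposited log2 signals per probe set, and a difference is the *Ogg1-/-* mean minus the WT mean on the log2 scale, with its standard error (SE) from limma and n = 6 per group. The 3 levels given for a group are the lowest, the median and the highest of 6 livers. A gene passed the test at an adjusted p under 0.05, and it was called when its fold was also at least 1.5. Levels of different probe sets are not comparable, so genes are compared by their differences.

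The targeted gene was examined first. *Ogg1* had levels of 6.34, 6.46 and 6.57 in WT livers and 5.70, 5.87 and 6.03 in *Ogg1-/-* livers, with no WT liver as low as any *Ogg1-/-* liver (p = 0.00216 by an exact two-sided permutation test, the floor for 6 mice a group). The probes' position with respect to the targeted exons was not found in the sources used here. On the HFD, 5.89% of all 35556 probe sets were called, against 0.242% on chow. Of the 19938 genes, 2369 (11.9%) rose and 2353 (11.8%) fell, but the falls were larger. In all, 150 genes (0.752%) rose and 1071 (5.37%) fell by at least 1.5-fold. The 2 genotypes did not overlap in 15.4% of genes, whether called or not. Among the 7554 protein-coding genes with a mean level of at least 7, 25.7% rose and 21.3% fell. The counts of the gene lists below are to be read beside both backgrounds. The livers also differed along the main axis of variation among the chow livers, to which no HFD array contributed. The score on it ran from -20.7 to 10.4 in WT and from 18.5 to 54.8 in *Ogg1-/-* livers, and 59.2% of that axis comes from 1 *Ogg1-/-* liver on chow. A second fit with this score as a covariate, called the axis fit here, left 246 genes higher and 341 lower. The score did not overlap between the genotypes on the HFD, so this fit can also take out part of a difference due to genotype. A pass kept or lost in it does not show the cause of a difference. Whether the axis is a technical or a biological difference was not tested.

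**Figure D1:**
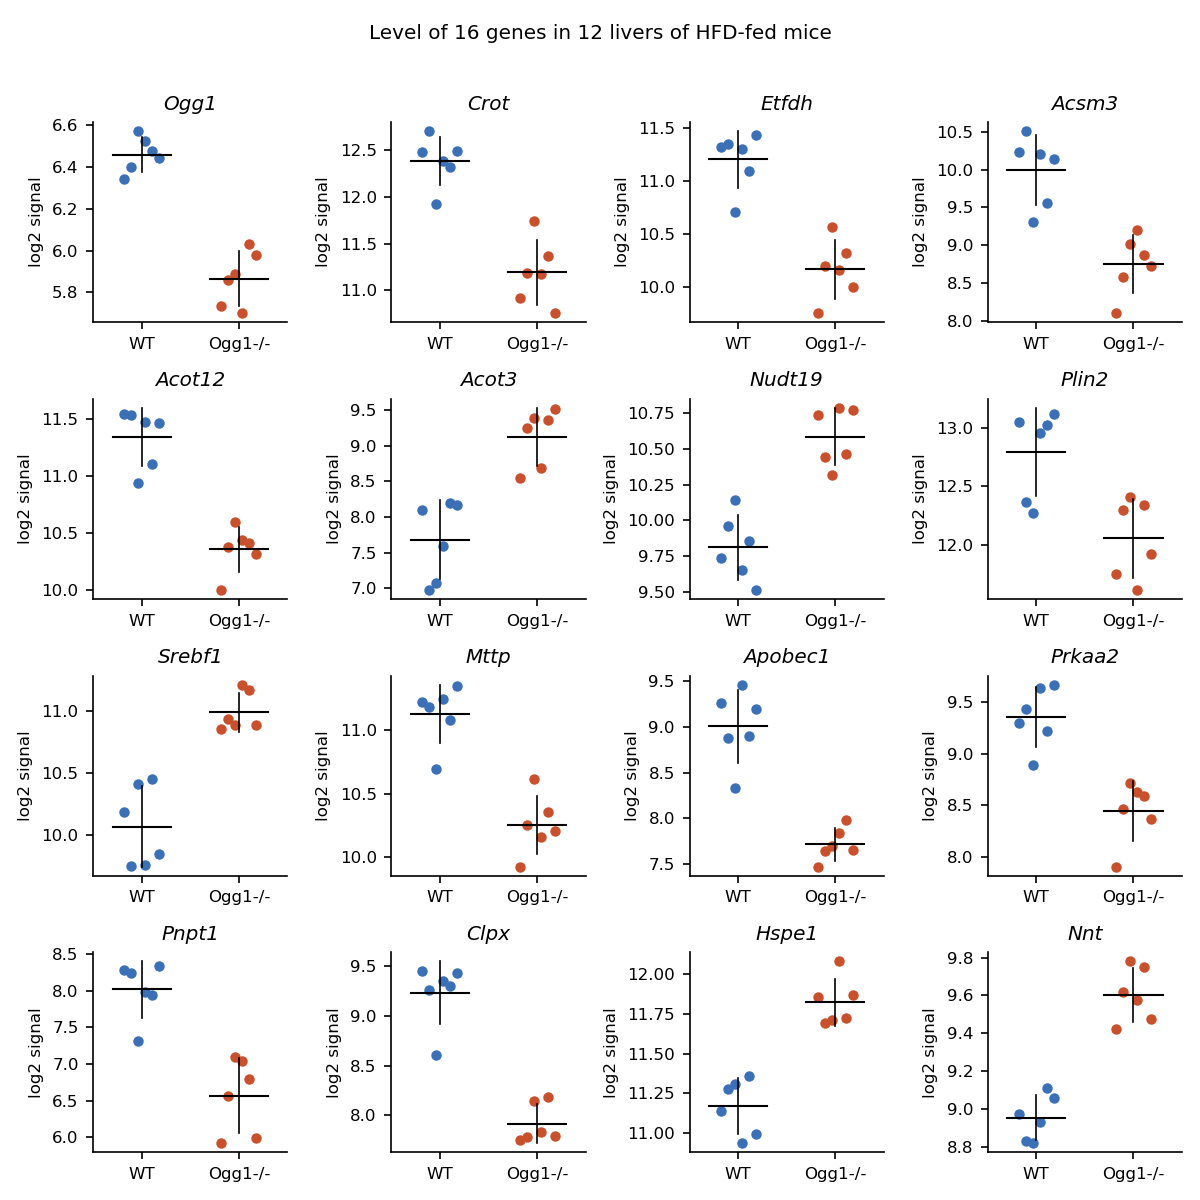
Log2 signal of 16 genes in the 12 livers on the HFD, WT on the left and *Ogg1-/-* on the right of each panel. Each point is a liver, with the mean of the 6 livers as a horizontal bar and their SD as a vertical one. In *Crot*, *Etfdh*, *Acot12* and *Pnpt1* every *Ogg1-/-* liver lies below every WT liver, in *Acot3*, *Nudt19*, *Srebf1* and *Hspe1* every one lies above, and in *Plin2* the groups overlap.

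Within fat oxidation, genes moved in both directions, and in beta-oxidation and fatty acid activation all changes of at least 1.5-fold were falls. Of 29 measured genes of mitochondrial beta-oxidation, 9 fell, 4 rose and 16 did not pass, with a median difference of -0.16, beside 0.03 over all genes. By at least 1.5-fold 5 fell and 0 rose, and 18 of the 29 differences lay below 0. The largest fall was that of *Etfdh*, the ubiquinone oxidoreductase that passes electrons from the acyl-CoA dehydrogenases to the respiratory chain. *Etfdh* had levels of 10.71, 11.31 and 11.44 in WT livers and 9.76, 10.18 and 10.57 in *Ogg1-/-* livers, without overlap. It fell by 1.03 (SE 0.23, adjusted p = 0.00495 from limma), and by 0.39 in the axis fit, where it still passed (adjusted p = 0.0394). *Acadm*, the medium-chain acyl-CoA dehydrogenase, had levels of 11.77, 12.28 and 12.43 in WT livers and 11.40, 11.63 and 11.83 in *Ogg1-/-* livers. The groups overlapped by a narrow margin, it fell by 0.59 (adjusted p = 0.0174) and it did not pass in the axis fit (adjusted p = 0.44). *Eci2*, an isomerase needed for unsaturated fatty acids, fell by 0.59 as well, from 10.07, 10.18 and 10.70 in WT livers to 9.37, 9.71 and 9.93 in *Ogg1-/-* livers, without overlap (adjusted p = 0.0136), and did not pass in the axis fit (-0.24, adjusted p = 0.349).

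The carnitine shuttle, by which long-chain fatty acids enter mitochondria, moved less. *Cpt1a*, its rate-controlling transferase, fell by 0.40 (adjusted p = 0.0242), a pass that was lost without replicate 1, 4 or 6 of the WT or 1 or 4 of the *Ogg1-/-* livers (adjusted p from 0.0512 to 0.0668). Its partner *Cpt2* did not pass at -0.23 (adjusted p = 0.111), though it did in a fit of the HFD livers alone (adjusted p = 0.0406). The very-long-chain dehydrogenase gene *Acadvl* went the other way and rose by 0.27 (adjusted p = 0.00542). *Mmut*, the mutase for odd-chain and branched products, fell by 0.85, and *Acad11*, another acyl-CoA dehydrogenase, fell by 0.82 (adjusted p = 0.00698 and 0.00497), both without overlap.

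Several genes for the activation of fatty acids to acyl-CoA, the step before oxidation or storage, fell. Of 16 genes of uptake and activation, 4 fell by at least 1.5-fold, 1 rose by less than that and 11 did not pass. Of the 16 differences, 7 lay above 0. *Acsm3*, a medium-chain acyl-CoA synthetase, had levels of 9.30, 10.17 and 10.51 in WT livers and 8.10, 8.80 and 9.19 in *Ogg1-/-* livers. These do not overlap, and the difference was -1.25 (SE 0.28, adjusted p = 0.00526). The long-chain synthetase genes *Acsl4* and *Acsl5* fell by 1.15 and 0.95 (adjusted p = 0.00469 and 0.00458), with overlap in *Acsl5*, where WT levels were 10.23, 10.88 and 11.21 and *Ogg1-/-* levels 9.35, 9.77 and 10.52. Both missed the threshold in the axis fit (adjusted p = 0.108 and 0.121). The fatty acid transporter gene *Cd36* did not pass at -0.69 (adjusted p = 0.0997), and fell without WT liver 3 (adjusted p = 0.0302) or *Ogg1-/-* liver 3 (adjusted p = 0.0425).

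In peroxisomes, which shorten very long fatty acids, 10 of 32 genes rose and 6 fell. These shares, 31% and 19%, are near the 25.7% and 21.3% of protein-coding genes with a mean level of at least 7. The largest change was a fall in *Crot*, which couples the shortened acyl chains to carnitine for export from the organelle. *Crot* was at 11.92, 12.43 and 12.70 in WT livers and at 10.76, 11.18 and 11.75 in *Ogg1-/-* livers, so that the highest *Ogg1-/-* liver lay below the lowest WT liver. It fell by 1.19 (SE 0.21, adjusted p = 0.00173), and by 0.64 in the axis fit (adjusted p = 0.0083). *Pex3*, which places proteins in the peroxisomal membrane, fell by 1.0 (adjusted p = 0.00706) and did not pass in the axis fit (-0.34, adjusted p = 0.0914). *Nudt19*, which splits free and acylated coenzyme A in peroxisomes, rose by 0.78 (SE 0.12, adjusted p = 0.000588). Its levels of 10.32, 10.60 and 10.79 in *Ogg1-/-* livers all exceed the WT levels of 9.51, 9.80 and 10.14, and it kept its pass in the axis fit (adjusted p = 0.0099).

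The acyl-CoA thioesterases, which cut the fatty acid from its coenzyme, split in the same manner: 5 of 13 rose and 2 fell. The peroxisomal enzyme gene *Acot3* rose from 6.98, 7.84 and 8.19 in WT livers to 8.54, 9.30 and 9.51 in *Ogg1-/-* livers, without overlap. Its difference was 1.44 (SE 0.31, adjusted p = 0.00424). *Acot4*, its neighbour in the same gene cluster, rose by 0.78 (adjusted p = 0.0153), and *Acot1* of that cluster did not pass at 0.59 (adjusted p = 0.0789) except in the HFD livers alone (adjusted p = 0.000715). Neither *Acot3* nor *Acot4* passed in the axis fit (adjusted p = 0.0639 and 0.173). Such close relatives may share probes. *Acot12*, the acetyl-CoA hydrolase of the liver cytosol, fell from 10.94, 11.47 and 11.54 to 10.00, 10.39 and 10.60, also without overlap, by 0.98 (SE 0.20, adjusted p = 0.00305).

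Genes known as targets of PPAR-alpha did not move as a group, with 4 of 18 higher and 6 lower. *Plin2*, the coat protein of lipid droplets, had levels of 12.27, 12.99 and 13.12 in WT livers and 11.61, 12.11 and 12.40 in *Ogg1-/-* livers, with overlap. It fell by 0.74 (SE 0.17, adjusted p = 0.00534). *Vnn1*, a pantetheinase, fell by 0.89 (adjusted p = 0.00837). The hormone gene *Fgf21* (0.09) and the hydroxylase genes *Cyp4a10* (-0.43, or -0.60 with adjusted p = 0.0255 without WT liver 3) and *Cyp4a14* (0.05) did not pass, and *Ppara* itself fell by 0.37 (adjusted p = 0.0456), which it did not without replicate 1, 2, 4 or 6 of the WT or 1, 2, 4 or 5 of the *Ogg1-/-* livers (adjusted p from 0.0531 to 0.114). None of *Plin2*, *Vnn1* and *Ppara* passed in the axis fit (adjusted p from 0.108 to 0.747).

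Above these enzymes, 7 of 23 genes of the PGC-1, LKB1 and AMPK group fell and 4 rose. *Cab39l*, a partner of the kinase LKB1, had levels of 8.08, 8.83 and 8.97 in WT livers and 7.17, 7.67 and 7.84 in *Ogg1-/-* livers. It fell by 1.06 (SE 0.24, adjusted p = 0.00495) and still passed in the axis fit, at -0.39 (adjusted p = 0.02). *Prkaa2*, a catalytic subunit of AMPK, was at 8.89, 9.37 and 9.67 in WT and at 7.91, 8.53 and 8.71 in *Ogg1-/-* livers, and fell by 0.91 (adjusted p = 0.00439). *Ppargc1a*, which encodes PGC-1alpha, was at 7.0, 7.38 and 7.75 in WT and at 6.35, 6.62 and 6.75 in *Ogg1-/-* livers, and fell by 0.79 (adjusted p = 0.0056). In none of these 3 genes did the groups overlap. Its relative *Ppargc1b* did not pass at 0.13 (adjusted p = 0.319), the AMPK subunit gene *Prkag1* rose by 0.37 and the kinase gene *Stk11*, which encodes LKB1, rose by 0.43. In the axis fit *Prkaa2* and *Ppargc1a* did not pass (adjusted p = 0.0553 and 0.152).

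Some genes of the tricarboxylic acid (TCA) cycle fell. Of 19 TCA cycle genes 8 fell, 1 rose and 10 did not pass, with a median of -0.18. *Mdh1*, the cytosolic malate dehydrogenase, had levels of 12.11, 12.30 and 12.37 in WT livers and 11.10, 11.60 and 11.87 in *Ogg1-/-* livers, without overlap, and fell by 0.71 (adjusted p = 0.00818). The fumarase gene *Fh1* fell by 0.71 and the isocitrate dehydrogenase gene *Idh3a* by 0.57 (adjusted p = 0.0159 and 0.0177). *Dld*, the lipoamide dehydrogenase that the pyruvate and oxoglutarate complexes share, was at 8.89, 9.29 and 9.47 in WT and at 7.90, 8.60 and 8.86 in *Ogg1-/-* livers, and fell by 0.75 (adjusted p = 0.0321). That call was lost without replicate 1, 2 or 6 of the WT or 1, 2 or 6 of the *Ogg1-/-* livers (adjusted p from 0.0555 to 0.0907). *Sdha* (-0.27), *Cs* (-0.18) and *Sucla2* (-0.40) did not pass in the fit of all 24 livers, where *Sdha* and *Sucla2* did pass in a fit of the HFD livers alone (adjusted p = 0.013 and 0.0104) and *Cs* without WT liver 2 (adjusted p = 0.0254). The membrane anchor gene *Sdhc* of succinate dehydrogenase rose by 0.38. In the axis fit 0 TCA cycle genes passed.

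Genes for subunits of the respiratory chain and of mitochondrial ribosomes rose by little. Of 34 complex I genes 24 rose and 1 fell, and of 75 mitochondrial ribosomal protein genes 27 rose and 4 fell, with medians of 0.33 and 0.24. Over the complex I list, each liver's median deviation from the 12-liver average ran from -0.22 to -0.04 in WT and from 0.09 to 0.26 in *Ogg1-/-* livers. The axis fit left 2 genes of each list higher.

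Genes that keep mitochondrial RNA, DNA and protein in order showed larger changes, 9 lower and 6 higher of 26. *Pnpt1*, the polynucleotide phosphorylase that degrades mitochondrial RNA, was at 7.31, 8.12 and 8.34 in WT livers and at 5.92, 6.68 and 7.09 in *Ogg1-/-* livers. The groups do not overlap, and it fell by 1.45 (SE 0.31, adjusted p = 0.00385), and by 0.60 in the axis fit (adjusted p = 0.0218). *Clpx*, the unfoldase of the matrix protease ClpXP, fell from 8.61, 9.32 and 9.45 to 7.75, 7.81 and 8.19, by 1.31 (SE 0.22, adjusted p = 0.00115). It fell on chow too, by 1.22 (adjusted p = 0.00683), and in the axis fit (adjusted p = 0.00532). Its protease partner *Clpp* rose by 0.32 (adjusted p = 0.0184). The fission gene *Dnm1l* fell by 0.96 and the RNA-binding gene *Lrpprc* by 0.82, each without overlap, and neither passed in the axis fit (adjusted p = 0.0974 and 0.0951). *Hspe1*, the co-chaperonin of the matrix, rose from 10.94, 11.21 and 11.36 to 11.69, 11.79 and 12.08, by 0.65 (SE 0.10, adjusted p = 0.000643), and *Tfam*, which packs mitochondrial DNA, rose by 0.39 (adjusted p = 0.0105).

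*Nnt*, the transhydrogenase of the inner mitochondrial membrane, is named outside the rule for naming genes, after its values were seen, because some C57BL/6 substrains carry a truncated copy of it. It had levels of 8.82, 8.95 and 9.11 in WT livers and 9.42, 9.60 and 9.78 in *Ogg1-/-* livers, without overlap. The difference was 0.65 (SE 0.15, adjusted p = 0.00637), was 0.93 in the axis fit (adjusted p = 0.00212) and did not pass on chow at 0.35 (adjusted p = 0.239). Which copy the mice carried was not tested.

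**Figure D2:**
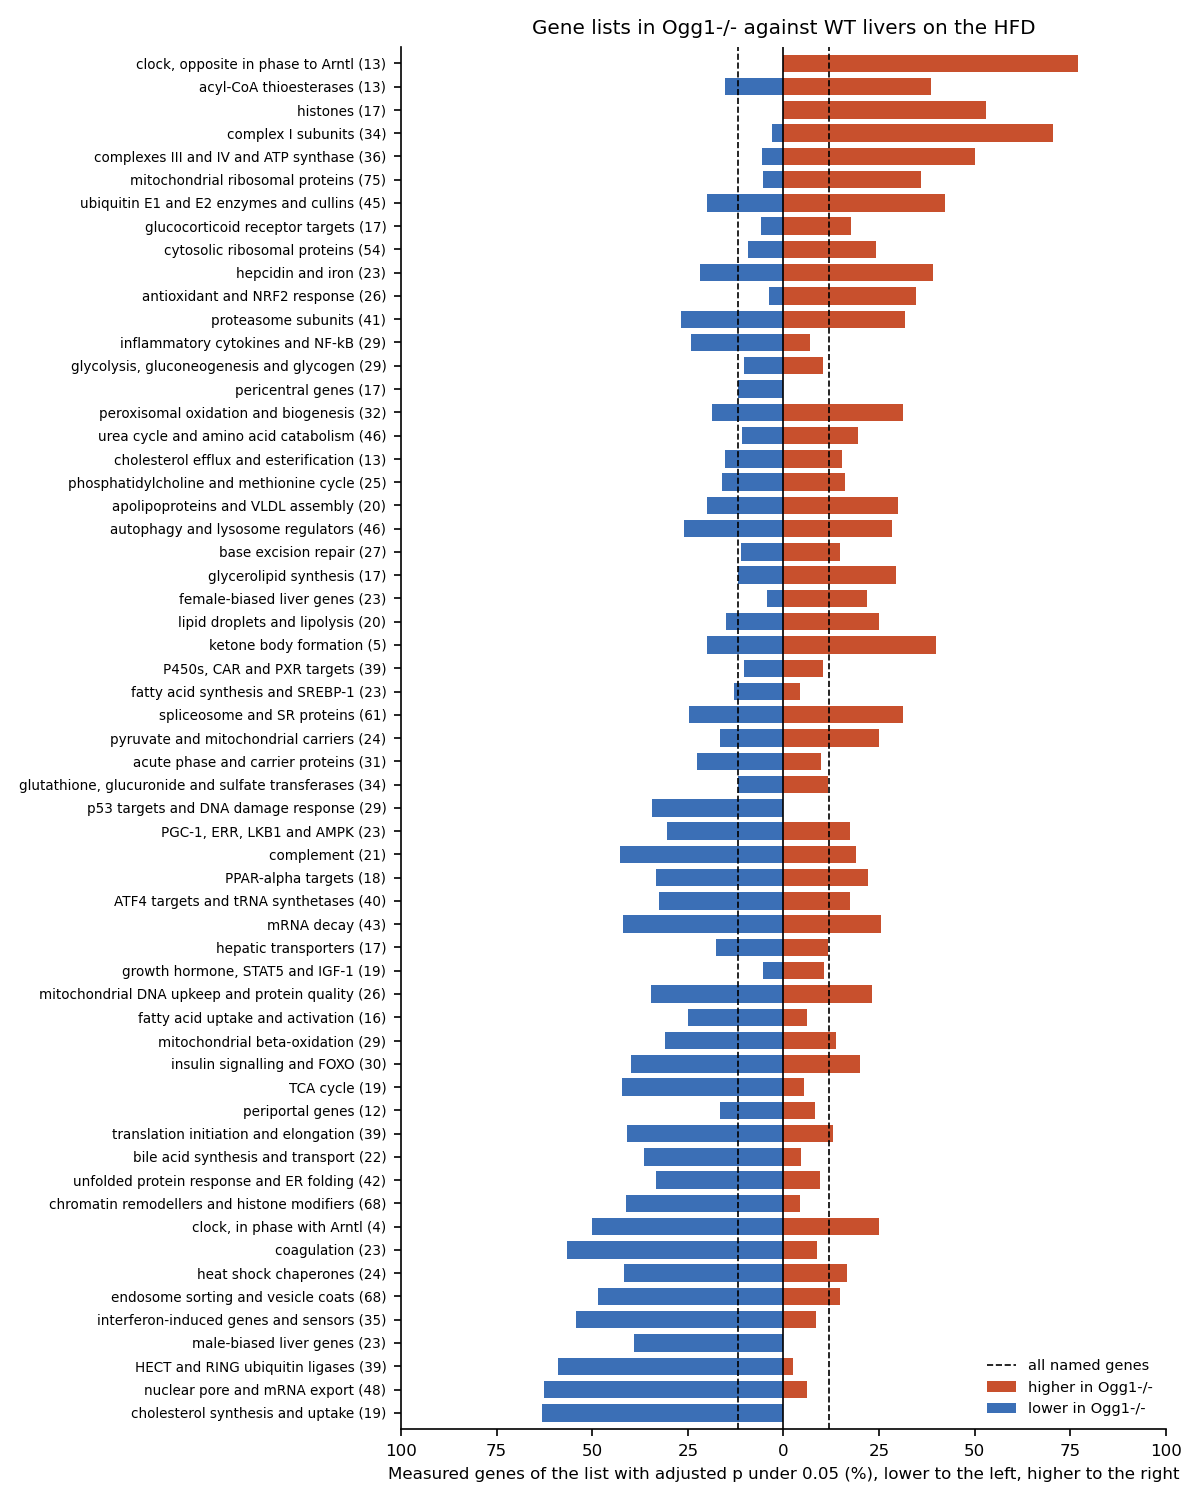
Percent of the measured members of 59 gene lists that rose (right) or fell (left) in *Ogg1-/-* livers on the HFD at an adjusted p under 0.05, with dashed lines at the 11.9% and 11.8% of all genes that did so. Nuclear transport and ubiquitin ligase lists reach far to the left, and complex I, histone and clock lists far to the right.

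In lipid synthesis the gene of the transcription factor rose, and most genes of the pathway did not pass. *Srebf1*, which encodes SREBP-1, was at 9.75, 10.02 and 10.45 in WT livers and at 10.85, 10.91 and 11.21 in *Ogg1-/-* livers, with every *Ogg1-/-* liver above every WT liver. It rose by 0.92 (SE 0.18, adjusted p = 0.00256) and was at 0.19 on chow (adjusted p = 0.61). In the axis fit it was at 0.69 and missed the threshold (adjusted p = 0.0566). The lipogenic enzyme genes *Fasn* (0.09), *Scd1* (0.06), *Acaca* (-0.58) and *Acly* (-0.42) did not pass. WT liver 2 decided this for *Acly*, which fell without it (-0.65, adjusted p = 0.0353), and *Acaca* fell without WT liver 2 or 3 (-0.74 and -0.75, adjusted p = 0.0444 and 0.0301). *Fasn* ranged from 10.20 to 12.75 in WT and from 11.63 to 12.59 in *Ogg1-/-* livers. Of 23 genes of fatty acid synthesis 19 did not pass, *Srebf1* was the 1 that rose and 3 fell: the elongase genes *Elovl2* and *Elovl3* by 0.90 and 0.88, and *Insig2*, which holds SREBP in the endoplasmic reticulum, by 0.72 (adjusted p from 0.00156 to 0.00358). All 3 also passed in the axis fit (adjusted p from 0.0271 to 0.04).

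Of 17 genes of glycerolipid synthesis 5 rose, 2 fell and 10 did not pass, with a median of 0.03. *Gpam*, the mitochondrial acyltransferase of the opening step, was at 10.10, 11.33 and 11.97 in WT livers and at 9.25, 10.01 and 10.73 in *Ogg1-/-* livers, with overlap, and fell by 1.08 (SE 0.30, adjusted p = 0.014). *Dgat1* and *Dgat2*, which add the last acyl chain, rose by 0.49 and 0.41 (adjusted p = 0.0132 and 0.00428), each without overlap. None of these 3 passed in the axis fit (adjusted p from 0.0945 to 0.329).

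Genes for the assembly of VLDL included falls of at least 1.5-fold in *Mttp* and *Apobec1*. *Mttp*, which loads lipid onto apolipoprotein B, had levels of 10.70, 11.20 and 11.35 in WT livers and 9.92, 10.23 and 10.62 in *Ogg1-/-* livers. The groups do not overlap, and it fell by 0.88 (SE 0.18, adjusted p = 0.00317). *Apobec1*, which edits the apolipoprotein B transcript, was at 8.33, 9.04 and 9.46 in WT and at 7.48, 7.68 and 7.99 in *Ogg1-/-* livers, and fell by 1.28 (SE 0.16, adjusted p = 0.000152), and by 0.84 on chow (adjusted p = 0.0149). Both passed in the axis fit (adjusted p = 0.0288 and 0.00263). *Apob* did not pass at -0.46 (adjusted p = 0.0655). It did pass in several alternative fits, such as that of the HFD livers alone (adjusted p = 0.02) and that with quantile normalization (adjusted p = 0.0452). *Apoa5*, which promotes triglyceride clearance, rose by 0.38 (adjusted p = 0.00212). Over all 20 apolipoprotein and VLDL genes, 6 rose and 4 fell.

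Of 19 genes of cholesterol synthesis and uptake 12 fell and 0 rose, with a median of -0.91, and 4 were lower in the axis fit. Of 13 clock genes that peak opposite to *Arntl* 10 rose and 0 fell, with a median of 0.87, and 9 were higher in the axis fit. Over all genes, 11.8% fell and 11.9% rose. The promoters of 5 of these genes are printed because they hold letters that the factors of these pathways are known to bind. They were taken from RefSeq on GRCm38.p6, 250 bases before to 50 after the start, in 5′ to 3′ direction of the gene, with CACGTG (the E-box of CLOCK and BMAL1) in capitals in the first 4 and TCACCCCAC (a sterol-response element) in capitals in the last. They lie at chr3:95882179-95882478 on the minus strand, chr11:69098699-69098998 on the plus strand, chr15:81802423-81802722 on the plus strand, chr6:145865371-145865670 on the minus strand and chr13:119690101-119690400 on the plus strand, in the order printed.
Ciart: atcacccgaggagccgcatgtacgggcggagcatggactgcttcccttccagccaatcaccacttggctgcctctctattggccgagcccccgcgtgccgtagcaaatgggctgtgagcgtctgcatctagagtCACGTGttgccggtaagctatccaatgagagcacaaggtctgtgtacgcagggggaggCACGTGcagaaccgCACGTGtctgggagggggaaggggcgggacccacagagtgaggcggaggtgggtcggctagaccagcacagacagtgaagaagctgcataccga
Per1: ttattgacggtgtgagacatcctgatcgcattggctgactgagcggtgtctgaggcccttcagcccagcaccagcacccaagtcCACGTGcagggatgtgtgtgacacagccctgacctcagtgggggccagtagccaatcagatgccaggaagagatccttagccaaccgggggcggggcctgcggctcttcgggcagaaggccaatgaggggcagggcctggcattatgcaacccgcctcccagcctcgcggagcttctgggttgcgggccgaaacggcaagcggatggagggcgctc
Tef: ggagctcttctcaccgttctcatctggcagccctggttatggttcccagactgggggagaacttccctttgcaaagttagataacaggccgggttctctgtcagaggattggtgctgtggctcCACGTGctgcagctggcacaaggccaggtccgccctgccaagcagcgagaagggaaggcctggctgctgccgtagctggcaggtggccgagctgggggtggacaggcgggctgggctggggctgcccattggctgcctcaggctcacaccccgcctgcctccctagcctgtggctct
Bhlhe41: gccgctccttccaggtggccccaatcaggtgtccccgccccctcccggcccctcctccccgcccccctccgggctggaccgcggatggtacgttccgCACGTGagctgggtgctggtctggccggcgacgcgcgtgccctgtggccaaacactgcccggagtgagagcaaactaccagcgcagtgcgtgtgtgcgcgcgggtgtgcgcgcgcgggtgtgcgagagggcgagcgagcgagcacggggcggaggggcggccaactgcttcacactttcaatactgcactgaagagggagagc
Hmgcs1: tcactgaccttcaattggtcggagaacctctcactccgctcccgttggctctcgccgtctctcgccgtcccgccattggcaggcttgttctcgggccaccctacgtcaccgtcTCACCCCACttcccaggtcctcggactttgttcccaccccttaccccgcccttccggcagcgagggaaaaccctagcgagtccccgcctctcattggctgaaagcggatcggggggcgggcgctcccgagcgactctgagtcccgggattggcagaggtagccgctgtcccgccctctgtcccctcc
Both motifs were searched on both strands, and they do not overlap one another. CACGTG was in 4 of 10 promoters of the clock list and in 8.40% of 15563 promoters of all genes, and TCACCCCAC was in 1 of 15 promoters of the cholesterol list and in 0.52% of all. A match describes the letters in this window only.

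*Ciart*, whose promoter holds 3 copies of the E-box, had levels of 7.21, 7.89 and 8.78 in WT livers and 9.96, 10.47 and 11.06 in *Ogg1-/-* livers. *Tef*, a transcription factor gene that follows the clock, was at 8.24, 8.33 and 8.73 in WT and at 9.11, 9.23 and 9.60 in *Ogg1-/-* livers. *Per1*, a clock repressor, was at 6.46, 7.14 and 7.95 in WT and at 8.04, 8.52 and 9.0 in *Ogg1-/-* livers. In none of the 3 did the groups overlap, and the differences were 2.53, 0.89 and 1.43 (adjusted p from 7.22e-05 to 0.000588). *Bhlhe41*, another repressor, rose less on the HFD than its value on chow, 0.87 with overlap (adjusted p = 0.00665) beside 2.18 (adjusted p = 1.57e-06), a change with diet that did not pass its own test. *Hmgcs1*, the cytosolic synthase at the start of the sterol pathway, was at 10.05, 11.96 and 12.64 in WT and at 9.54, 9.90 and 10.51 in *Ogg1-/-* livers, with overlap, and fell by 1.65 (adjusted p = 0.00353), but missed the threshold in the axis fit (-1.37, adjusted p = 0.0652). Time of day at collection and genotype cannot be told apart in genes that follow the clock.

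In glucose and insulin signalling, 12 of 30 genes of the insulin and FOXO list fell and 6 rose. *Insr*, the insulin receptor gene, was at 9.68, 10.05 and 10.19 in WT livers and at 8.95, 9.32 and 9.55 in *Ogg1-/-* livers, without overlap, and fell by 0.69 (SE 0.21, adjusted p = 0.0225). It missed the threshold without WT replicate 2 (adjusted p = 0.0505), without *Ogg1-/-* replicate 1 (adjusted p = 0.0597) and in the axis fit (adjusted p = 0.543). *Pik3ca*, a catalytic subunit of phosphoinositide 3-kinase, was at 7.52, 8.04 and 8.32 in WT and at 6.44, 6.96 and 7.05 in *Ogg1-/-* livers, and fell by 1.05 (SE 0.21, adjusted p = 0.00281). The kinase gene downstream, *Akt1*, went the other way, from 8.49, 8.92 and 9.06 to 9.32, 9.46 and 9.62, and rose by 0.59 (adjusted p = 0.00332). *Foxo1*, the factor that AKT restrains, rose by 0.47 (adjusted p = 0.00453). *Slc37a4*, the glucose-6-phosphate transporter, rose by 0.59 and the phosphofructokinase gene *Pfkl* by 0.46 (adjusted p = 0.00133 and 0.00331), and 23 of 29 genes of glycolysis, gluconeogenesis and glycogen did not pass.

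In the pathway of OGG1 itself few genes moved. Of 27 base excision repair genes including *Ogg1*, 4 rose, 3 fell and 20 did not pass, shares of the same order as over all genes. *Neil1*, a glycosylase for oxidised pyrimidines, was at 6.73, 7.05 and 7.18 in WT livers and at 7.30, 7.47 and 7.60 in *Ogg1-/-* livers, without overlap, and rose by 0.44 (SE 0.09, adjusted p = 0.00329). *Nthl1*, with a related substrate range, was at 6.14, 6.25 and 6.46 in WT and at 6.41, 6.57 and 6.87 in *Ogg1-/-* livers, with overlap, and rose by 0.35 (adjusted p = 0.00636). *Parp2*, which marks nicked DNA, fell from 6.49, 6.80 and 7.14 to 6.05, 6.11 and 6.46, by 0.61 (adjusted p = 0.0036). *Mutyh*, which removes adenine opposite oxidised guanine, did not pass at 0.11 (adjusted p = 0.266), nor did *Neil2* (-0.08), *Neil3* (-0.10) and *Mpg* (0.09). None of *Neil1*, *Nthl1* and *Parp2* passed in the axis fit (adjusted p from 0.0707 to 0.134) or on chow.

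Genes of the p53 and DNA damage response fell or did not pass, 10 lower and 0 higher of 29, and 0 passed in the axis fit. The median difference of the list was near 0, at -0.05, and 14 of the 29 differences lay above 0. *Mdm2*, the ubiquitin ligase for p53 and its target, was at 8.11, 8.38 and 8.58 in WT livers and at 7.24, 7.57 and 7.90 in *Ogg1-/-* livers, and fell by 0.77 (SE 0.19, adjusted p = 0.00748), without overlap. The sestrin genes *Sesn1* and *Sesn3* fell by 0.60 and 0.62 (adjusted p = 0.0128 and 0.00338). Of 26 antioxidant genes 9 rose and 1 fell. *Sod2*, the mitochondrial superoxide dismutase, rose by 0.31 and *Prdx2*, a peroxiredoxin, by 0.41 (adjusted p = 0.00163 and 0.00493). The 2 subunits of the enzyme that starts glutathione synthesis went in opposite directions, with the modifier gene *Gclm* rising by 0.35 (adjusted p = 0.00247) and the catalytic gene *Gclc* falling, at -0.72 (adjusted p = 0.00629). *Nqo1* (0.40) and *Hmox1* (0.35), much-used targets of NRF2, did not pass.

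Among the heat shock chaperones 10 of 24 fell and 4 rose, with a median of -0.34. *Hsp90aa1*, the inducible HSP90, was at 8.70, 9.41 and 9.82 in WT livers and at 8.02, 8.27 and 8.66 in *Ogg1-/-* livers, and fell by 1.05 (adjusted p = 0.0101). Subunits of the cytosolic chaperonin, which folds actin and tubulin, fell in 7 of 8 cases with a median of -0.68. *Bag3*, a co-chaperone of selective autophagy, rose from 8.37, 8.68 and 9.32 to 9.40, 9.42 and 9.88, by 0.74 (adjusted p = 0.00657), and its partner *Hspb8* rose by 0.59 (adjusted p = 0.00731), each without overlap. *Hspa1a* (0.19) and *Hspb1* (0.30) did not pass. None of *Hsp90aa1*, *Bag3* and *Hspb8* passed in the axis fit (adjusted p from 0.18 to 0.23).

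Genes of nuclear transport, which carries proteins and RNA through the nuclear pore, fell in large part. Of 48 genes of the nuclear pore and of nuclear transport, 30 fell and 3 rose, with a median of -0.49, and 19 fell by at least 1.5-fold. Importins, exportins and transportins, the carriers themselves, fell in 17 of 18 cases with a median of -0.71, and nucleoporins in 11 of 20 with a median of -0.32. *Kpna3*, an importin alpha, was at 8.40, 9.20 and 9.44 in WT livers and at 7.30, 7.95 and 8.31 in *Ogg1-/-* livers. It fell by 1.22 (SE 0.28, adjusted p = 0.00499) without overlap, and by 0.44 in the axis fit (adjusted p = 0.0202). *Xpo1*, the main protein exportin, fell by 0.87 and *Ranbp2*, the largest nucleoporin of the cytoplasmic face, by 0.71 (adjusted p = 0.0066 and 0.0145). The list had 3 genes lower in the axis fit.

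Within the spliceosome, groups of proteins formed by their symbols differed. The Sm and LSm ring proteins and other snRNP proteins rose in 10 of 16 cases and fell in 0, with a median of 0.36. The SF3 and PRPF factors fell in 9 of 19 cases and rose in 5, with a median of -0.24. *Sf3b1*, which holds the branch point, was at 8.66, 9.25 and 9.43 in WT and at 7.78, 8.21 and 8.41 in *Ogg1-/-* livers, and fell by 0.91 (adjusted p = 0.00406). In mRNA decay, 18 of 43 genes fell and 11 rose. *Cnot1*, the scaffold of the deadenylase, fell from 8.89, 9.59 and 9.76 to 8.16, 8.54 and 8.81, by 0.88 (adjusted p = 0.00698), and the exosome nuclease gene *Dis3* fell by 0.78 (adjusted p = 0.00486). The division of complexes into these parts was made after the values were seen, so their counts are a description.

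**Figure D3:**
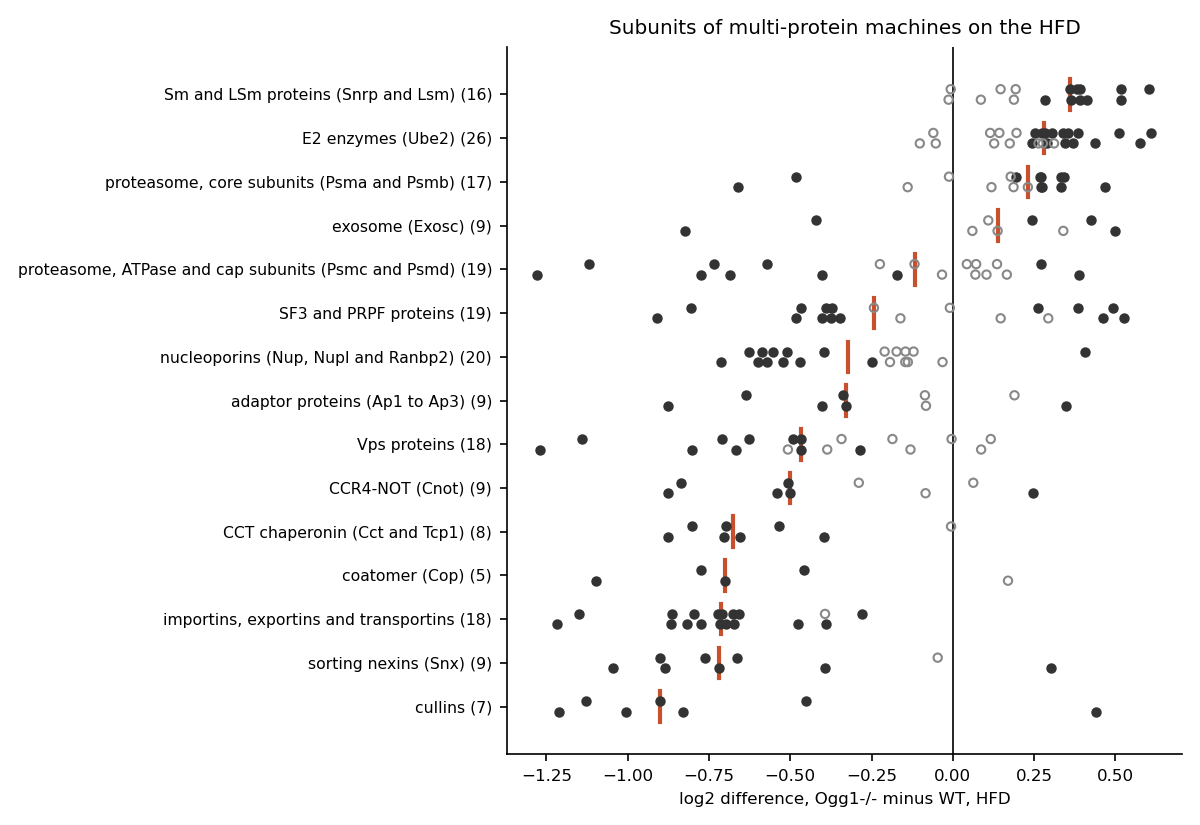
Log2 difference (*Ogg1-/-* minus WT on the HFD) of each measured gene in parts of 8 cellular machines. Each point is a gene, filled where its adjusted p is under 0.05, and each bar is the median of the part. Proteasome core, Ube2 and Sm/LSm genes lie mostly above 0, and cullins, importins and chaperonin genes mostly below it.

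Protein degradation divided in the same way. The ubiquitin-conjugating enzymes named Ube2 rose in 15 of 26 cases and fell in 0, with a median of 0.28, *Ube2e2* and *Ube2a* by 0.61 and 0.58 (adjusted p = 0.00264 and 0.00276). The cullins, scaffolds of the largest family of ubiquitin ligases, fell in 6 of 7 cases with a median of -0.90. *Cul2* was at 8.06, 8.67 and 8.93 in WT livers and at 6.96, 7.32 and 7.76 in *Ogg1-/-* livers, and fell by 1.21 (SE 0.24, adjusted p = 0.00269), without overlap and also in the axis fit (adjusted p = 0.00416). *Cul7* was the exception and rose by 0.44 (adjusted p = 0.00325). Of 39 HECT and RING ligases 23 fell and 1 rose, with a median of -0.45. *Rnf125*, a ligase for viral RNA sensors, was at 11.01, 11.77 and 12.51 in WT and at 9.89, 10.68 and 10.89 in *Ogg1-/-* livers, and fell by 1.17 (adjusted p = 0.00198), and *Nedd4* fell by 0.88 (adjusted p = 0.00348). Both passed in the axis fit, which left 6 of the list lower.

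The proteasome itself, 13 higher and 11 lower of 41, was divided by part. Its core subunits rose in 9 of 17 cases and fell in 2, with a median of 0.23, while the ATPases and cap subunits rose in 2 of 19 cases and fell in 8. *Psmc6*, an ATPase of the cap, was at 8.59, 9.42 and 9.56 in WT livers and at 7.09, 8.25 and 8.48 in *Ogg1-/-* livers, and fell by 1.28 (SE 0.28, adjusted p = 0.00471). *Psmd1*, the largest cap subunit, was at 10.50, 11.13 and 11.31 in WT and at 9.57, 9.89 and 10.26 in *Ogg1-/-* livers, and fell by 1.12 (SE 0.21, adjusted p = 0.00238). The groups do not overlap in either. *Psmd1* passed in the axis fit (adjusted p = 0.0195) and *Psmc6* did not (adjusted p = 0.0588).

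Endosome sorting and vesicle coats fell in 33 of 68 cases and rose in 10, with a median of -0.36, and the axis fit left 12 lower and 4 higher. *Vps35*, the core of the retromer that returns receptors from endosomes, was at 8.52, 9.27 and 9.42 in WT livers and at 7.45, 8.05 and 8.53 in *Ogg1-/-* livers, with the ranges just touching, and fell by 1.14 (SE 0.26, adjusted p = 0.00497). *Vps41*, which tethers endosomes to lysosomes, was at 7.83, 8.90 and 9.07 in WT and at 7.11, 7.48 and 7.58 in *Ogg1-/-* livers, without overlap, and fell by 1.27 (SE 0.28, adjusted p = 0.00439). Sorting nexins fell in 7 of 9 cases and coatomer subunits in 4 of 5. In translation, 16 of 39 factors fell and 5 rose. *Eif2s2*, the beta subunit of the initiation factor eIF2, was at 7.17, 7.95 and 8.37 in WT and at 6.06, 6.75 and 7.04 in *Ogg1-/-* livers, and fell by 1.29 (SE 0.32, adjusted p = 0.00729), and *Eif5a* rose by 0.56 (adjusted p = 0.00166). *Vps41* and *Eif2s2* missed the threshold in the axis fit (adjusted p = 0.0589 and 0.0536).

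Chromatin genes and the histones that they act on went in opposite directions. Of 68 remodellers and histone modifiers 28 fell and 3 rose, with a median of -0.29. *Kdm7a*, a histone demethylase, was at 7.76, 8.29 and 8.49 in WT livers and at 6.66, 7.28 and 7.53 in *Ogg1-/-* livers, and fell by 0.97 (adjusted p = 0.00766) without overlap. Of 17 listed histone genes 9 rose and 0 fell, with a median of 0.34. *H2az1*, which encodes the variant H2A.Z, rose from 10.22, 10.27 and 10.47 to 10.70, 10.80 and 11.05, by 0.52 (SE 0.10, adjusted p = 0.00239), also without overlap and in the axis fit (adjusted p = 0.0207). Among 44 histone genes of any symbol 36.4% rose and 0 fell, and among 52 genes of small nucleolar RNAs, the guides of ribosomal RNA modification, 26.9% rose and 1.92% fell. By contrast, in 347 genes with the zinc finger prefix Zfp 5.76% rose and 19.3% fell. In 1027 olfactory receptor genes 0.682% rose and 0.682% fell, near the 0.727% and 0.997% of the dimmest quintile of protein-coding genes by mean level.

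The interferon-induced genes and RNA sensors fell in 19 of 35 cases and rose in 3, with a median of -0.39. *Ifit3*, which binds foreign RNA, was at 6.86, 7.59 and 7.98 in WT livers and at 5.64, 6.38 and 6.70 in *Ogg1-/-* livers, and fell by 1.22 (SE 0.26, adjusted p = 0.0036). *Ddx58*, the sensor RIG-I, was at 7.73, 8.34 and 8.47 in WT and at 6.87, 7.24 and 7.32 in *Ogg1-/-* livers, and fell by 0.98 (SE 0.19, adjusted p = 0.00247). Neither gene overlapped between the groups, and *Ddx58* passed in the axis fit (adjusted p = 0.0328) where *Ifit3* did not (adjusted p = 0.0726). *Irf9*, of the factor that switches these genes on, fell by 0.59 (adjusted p = 0.00244), and *Irf7* did not pass at 0.06. Inflammatory genes moved less, with 7 of 29 lower and 2 higher. The cytokine genes *Tnf* (0.18) and *Ccl2* (0.08) did not pass.

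Both genes of hepcidin, the hormone that limits iron export from cells, rose. *Hamp2* was at 9.38, 9.57 and 10.31 in WT livers and at 10.33, 10.56 and 10.93 in *Ogg1-/-* livers, and rose by 0.92 (SE 0.22, adjusted p = 0.00673), its groups just apart. *Hamp* was at 11.83, 12.87 and 13.46 in WT and at 13.09, 13.54 and 13.69 in *Ogg1-/-* livers, with overlap, and rose by 0.70 (adjusted p = 0.0224). *Hamp* lost its pass without WT replicate 6, the lowest (adjusted p = 0.0636), without WT replicate 1 (adjusted p = 0.0548) and without *Ogg1-/-* replicate 2 (adjusted p = 0.0503). Neither passed in the axis fit (adjusted p = 0.173 for *Hamp2* and 0.174 for *Hamp*). The 2 genes are near-identical copies and may share probes. The iron exporter gene *Slc40a1* fell by 0.51 and *Ireb2*, which senses cellular iron, by 1.13 (adjusted p = 0.0103 and 0.00522). Of the iron list as a whole, 9 of 23 rose and 5 fell. On chow *Hamp2* was at -0.05 and *Hamp* at 0.09.

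Markers of liver cell types were counted beside these lists. Of 7 hepatocyte markers 1 fell, by 0.43, and 6 did not pass, and *Alb* ran from 14.05 to 14.27 in WT and from 14.07 to 14.22 in *Ogg1-/-* livers, a difference of -0.02. Of 14 markers of sinusoidal endothelium 8 fell and 1 rose, with a median of -0.48, and their mean level ran from 8.77 to 9.06 in WT and from 8.52 to 8.72 in *Ogg1-/-* livers. *Tek*, the angiopoietin receptor, was at 7.36, 7.75 and 7.86 in WT and at 6.65, 6.95 and 7.27 in *Ogg1-/-* livers. Of 11 stellate cell and fibroblast markers 2 fell, of 11 Kupffer cell markers 2 fell and 1 rose, of 9 lymphocyte markers 1 fell and 1 rose, of 2 erythroid markers 1 rose, and of the monocyte, cholangiocyte, adipocyte, skeletal muscle and pancreas markers none passed. In whole liver, fewer cells of a type and less RNA per cell cannot be told apart, and the part of the endothelial markers in the falling lists was not tested. The endothelial list had 0 genes lower in the axis fit.

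Across the lists, the members that rose tended to be short genes and those that fell long ones, which no list had used. For 7554 protein-coding genes with a mean level of at least 7, the annotated length of the gene in the genome was taken from RefSeq. In the shortest quintile, up to 7.68 kb, 43.6% rose and 4.04% fell, with a median difference of 0.27. In the longest quintile, above 61.2 kb, 8.74% rose and 41.8% fell, with a median of -0.26, and the quintiles between ran in order, at 0.18, 0.07 and -0.12. Spearman's rho across genes was -0.469 on the HFD, -0.449 for the chow difference and -0.261 in the axis fit, and it was -0.00492 for the GC content of the promoter. These are across genes, which are not independent replicates, so no p is given.

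Each liver was then placed by the same measure. Against the average of the 12 livers, the median of the shortest quintile lay between 0.03 and 0.22 in *Ogg1-/-* livers and between -0.20 and -0.04 in WT livers, and that of the longest quintile between -0.25 and -0.06 in *Ogg1-/-* and between 0.03 and 0.17 in WT livers. The groups did not overlap in either quintile. The lists follow their members' lengths in part: the median gene was 0.745 kb for histones, 8.10 kb for complex I, 44.2 kb for nuclear transport, 77.9 kb for chromatin genes and 87.5 kb for HECT and RING ligases, beside 17.7 kb over all genes. Chaperonin genes, at a median of 12.8 kb, fell, and Ube2 genes, at 33.1 kb, rose, so that length and direction did not always go together. Whole lists also went the other way. The cholesterol list, at 16.1 kb, and the interferon list, at 14.0 kb, had median differences of -0.91 and -0.39. The list of ubiquitin E1 and E2 enzymes and cullins, at 43.4 kb, had a median of 0.22. The spread of each array's probe sets around their own medians over all 24 arrays (the interquartile range of relative log expression) differed too. It was 0.208 to 0.271 in WT and 0.258 to 0.427 in *Ogg1-/-* livers (p = 0.00433 by an exact two-sided permutation test). Differences in expression themselves widen this spread, so it is not a separate measure of array quality. Its part in these values was not tested.

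**Figure D4:**
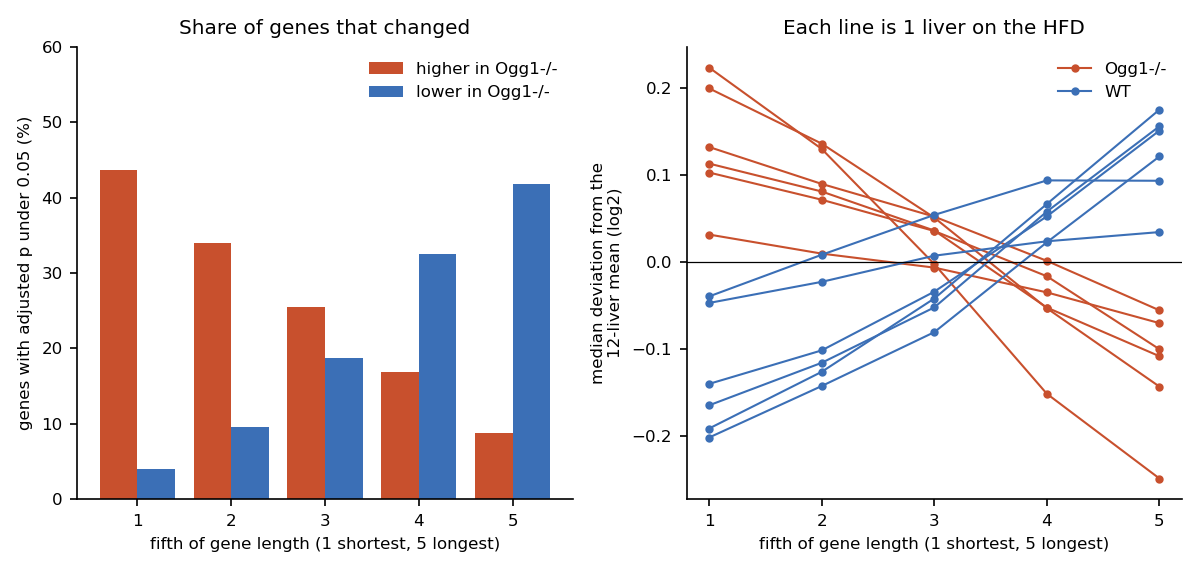
Differences between the genotypes on the HFD by quintiles of annotated gene length, over 7554 protein-coding genes, as the share of genes that rose or fell and as the median of each quintile in each of the 12 livers (log2 units, against the average of the 12). Rises fall from 43.6% to 8.74% and falls grow from 4.04% to 41.8% between the shortest and the longest quintile, and the 6 livers of each genotype lie apart at both ends.

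The largest single changes without overlap lay partly outside these lists. *Tmem184c*, a transmembrane protein gene, was at 8.63, 9.06 and 9.30 in WT livers and at 6.91, 7.46 and 7.79 in *Ogg1-/-* livers, and fell by 1.57 (adjusted p = 0.0018). *Nxpe2* was at 9.39, 9.75 and 10.14 in WT and at 7.91, 8.38 and 8.46 in *Ogg1-/-* livers, and fell by 1.43 (SE 0.18, adjusted p = 0.000102). *Fermt2*, an activator of integrins, was at 9.55, 10.10 and 10.35 in WT and at 8.15, 8.59 and 8.92 in *Ogg1-/-* livers, and fell by 1.46 (adjusted p = 0.00168). All 3 passed in the axis fit (adjusted p from 0.000301 to 0.00437). On chow they did not pass, with -0.81, -0.45 and -0.77.

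Among the rises, *Tspan4*, a tetraspanin, was at 9.69, 9.92 and 10.09 in WT livers and at 10.74, 10.94 and 11.12 in *Ogg1-/-* livers, and rose by 1.0 (SE 0.15, adjusted p = 0.000588). *Marveld1* rose by 0.92, from 9.02, 9.23 and 9.58 to 9.97, 10.24 and 10.33 (adjusted p = 0.000227), and *B4galt5*, a galactosyltransferase of lactosylceramide synthesis, by 0.88, from 8.17, 8.59 and 8.98 to 9.10, 9.47 and 9.85 (adjusted p = 0.0014). *Etfbkmt*, which methylates the electron transfer flavoprotein that feeds ETFDH, rose by 0.84, from 8.53, 9.13 and 9.52 to 9.72, 9.81 and 10.54 (adjusted p = 0.00826). All 4 passed in the axis fit as well (adjusted p from 0.00263 to 0.0242). *Tspan4* and *Marveld1* also rose on chow, by 0.79 and 0.60, where *B4galt5* (0.42) and *Etfbkmt* (0.14) did not pass. *Zbtb16* was at 7.46, 7.68 and 7.76 in WT and spread from 7.77 over 9.13 to 10.08 in *Ogg1-/-* livers, so that its rise of 1.32 (adjusted p = 0.0042) differed widely between livers and its groups were only just apart.

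The genes around *Ogg1* on chromosome 6 were examined since a targeted allele can carry DNA of the strain it was made in. Of the 50 nearest measured genes, 25 to each side, 9 rose and 7 fell, and of these 1 rose and 3 fell by at least 1.5-fold. Over the genes of all other chromosomes, 2239 of 18818 rose and 2224 fell. *Sumf1*, which activates sulfatases and lies 16 measured genes from *Ogg1*, was at 7.75, 7.88 and 8.07 in WT livers and at 8.44, 8.47 and 8.67 in *Ogg1-/-* livers. It rose by 0.63 on the HFD (SE 0.07, adjusted p = 3.88e-05) and by 0.68 on chow (adjusted p = 5.71e-06), and in the axis fit (adjusted p = 0.000414). *Crbn*, the substrate receptor of a cullin ligase, fell by 1.23 (adjusted p = 0.00371) and did not pass on chow at -0.54. Both were named after their values were seen. Whether DNA of another strain lies there was not tested. On the same chromosome but outside these 50, *Mug2* and *Gm10319* lie 97 and 98 measured genes from *Ogg1*. They fell by 3.11 and 1.59 on the HFD and by 3.09 and 1.48 on chow, and the fall of *Mug2* was the largest of any called gene on the HFD.

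**Figure D5:**
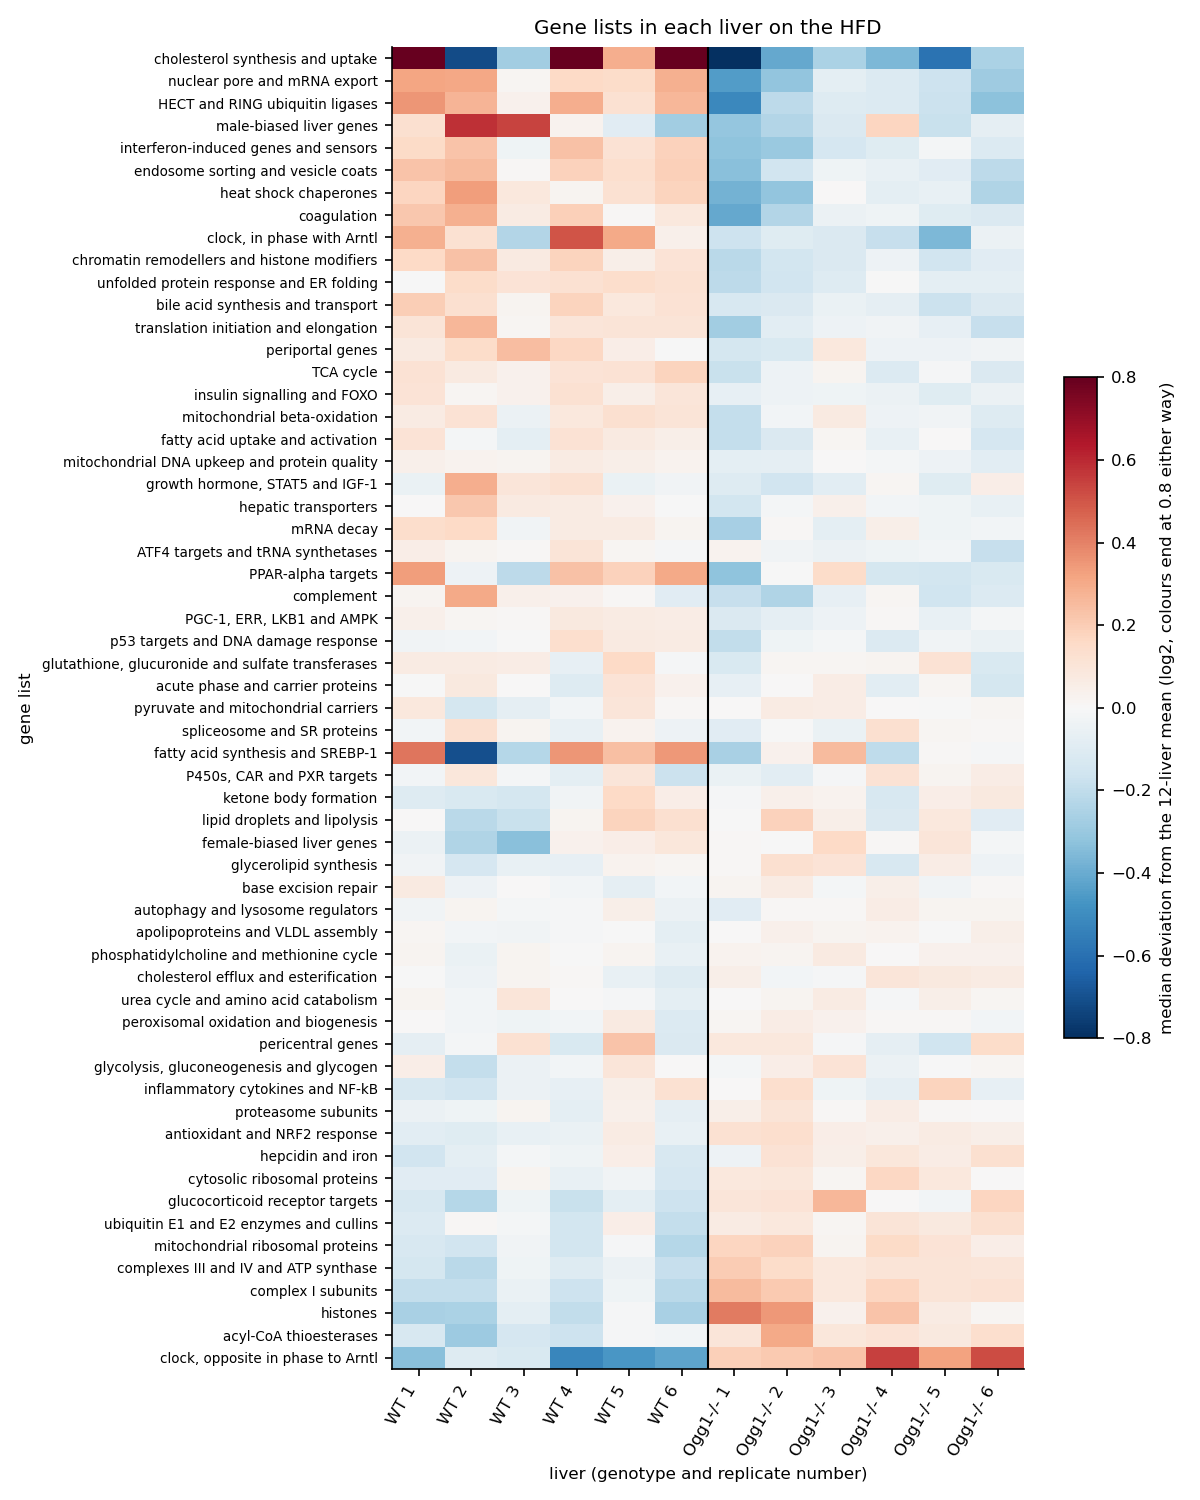
Median, over the genes of each list, of each HFD liver's deviation from the average of the 12 livers (log2 units, colour scale, with values beyond its ends drawn in the end colours). Columns are livers and rows are lists. The nuclear transport and ligase lists are lowest in *Ogg1-/-* liver 1 and nearest to the average in WT liver 3 and *Ogg1-/-* liver 3, and cholesterol synthesis is high in WT livers 1, 4 and 6.

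The livers of 1 genotype were not alike. In the median over the cholesterol list, WT livers 1, 4 and 6 were at 1.15, 1.33 and 0.97 above the 12-liver average and WT livers 2 and 3 at -0.72 and -0.28. The *Ogg1-/-* livers lay between -0.88 and -0.25, so that WT livers 2 and 3 fell within their range. In nuclear transport and in ubiquitin ligases *Ogg1-/-* liver 1 was lowest, at -0.45 and -0.52, WT liver 3 lay at 0.01 and 0.03 and *Ogg1-/-* liver 3 at -0.08 and -0.10, and no *Ogg1-/-* liver reached a WT liver.

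On chow, the lists differed in how their medians stood beside those on the HFD. The median difference of complex I was 0.16 on chow beside 0.33 on the HFD, that of nuclear transport -0.23 beside -0.49, that of HECT and RING ligases -0.27 beside -0.45, and that of interferon genes -0.14 beside -0.39. The number of genes that passed on chow was 0 for complex I, nuclear transport, interferon genes, beta-oxidation and the TCA cycle, and 2 lower for the ligases. In the clock list opposite to *Arntl* the median was 0.90 on chow beside 0.87 on the HFD, and 10 of 13 genes rose in each diet. Fatty acid synthesis was lower in its median on chow (-0.23 beside -0.01), and the urea cycle list had medians of opposite sign (-0.10 beside 0.06). A smaller count on chow does not show a difference between the diets. The test of that change passed for 1 gene, *Tmeff2*, a transmembrane protein with follistatin-like domains, which rose by 1.30 on chow, was at 0.13 on the HFD, and changed by -1.17 (adjusted p = 0.000415). For this change 2447 probe sets (6.88%) had an unadjusted p under 0.05, where 5% would with no change at all.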

How the data were processed

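Total RNA of whole liver was hybridised to Mouse Gene ST arrays. Each deposited value is a log2 signal of 1 probe set. Background correction, normalization and summary over probes were the authors', by RMA according to the submitters' processing notes. Arrays carry no read depth, and their number limits the precision. The 24 arrays entered a single limma fit (version 3.58.1, R 4.3.3) with a mean for each of the 4 groups. No probe set was filtered, and Benjamini-Hochberg adjustment ran over the full 35556. A total of 21789 probe sets have a single symbol in the platform annotation, 1621 have several, from which none was named, and 12146 are unnamed here. Each of 19938 genes is its probe set with the highest mean. Some genes are not reported here.

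The members and the 59 gene lists and 11 marker lists were chosen with earlier results of these data known. Genes named are *Ogg1*, those the study names, the 15 largest rises and falls without overlap, starred and up to 5 leading members of each list, and cell type markers. *Hspe1*, *Prkag1*, *Stk11*, *Clpp*, *Tfam*, *Nnt*, *Akt1*, *Hspb8*, *Ube2e2*, *Ube2a*, *Cul7*, *Eif5a*, *Irf9*, *Sumf1* and *Crbn* are named outside that rule, after their values were seen. Lists are described by counts and medians, with no set test. Gene length is the span annotated in RefSeq on GRCm38.p6 and replaces the protein length first planned.

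The axis score is each array's projection on the first principal component of the chow arrays' deviations from their group means. On simulated data for this comparison, with all 35556 probe sets, 71 of 100 changed by 1.6-fold and 94 of 100 changed by 2.5-fold were called, and 2 of 35356 unchanged ones. The simulated probe sets varied independently, without the axis that the real arrays share. These counts therefore do not give the error rate of the real comparison. Alternatives changed the scaling (median centring or quantile normalization), the arrays in the fit (those on the HFD, or all but 1), their weights, the prior (trended and robust), the test (the methods' t-test), the covariates (axis score or replicate block), the fold required, the dim probe sets kept and how a gene's probe sets were combined. Replicate numbers were checked as pairs: residuals of same-numbered WT and *Ogg1-/-* livers correlated at -0.22 to 0.03 and 0 WT livers correlated best with their own number, so livers were not treated as paired. The labels call each sample a biological replicate.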

Additional observations from a re-analysis of the deposited data

Results flagged for a closer look

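In 140 groups of 6 livers, a single liver stood apart from the other 5 in 8, a gap that chance gives in about 1 of 20 groups. *Ogg1-/-* liver 1 was low in *Pik3ca* (6.44), *Ifit3* (5.64) and *Ddx58* (6.87), and WT liver 3 was low in *Clpx* (8.61) and *Psmc6* (8.59), toward the *Ogg1-/-* livers. *Ogg1-/-* liver 5 was low in *Nxpe2* (7.91), *Ogg1-/-* liver 4 high in *Etfbkmt* (10.54) and WT liver 2 high in *Eci2* (10.70). All 8 genes passed the test without that liver.

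The genotype difference of *Tmeff2* changed with diet by -1.17, from 1.30 on chow to 0.13 on the HFD (limma interaction, adjusted p = 0.000415), with no overlap on chow and overlap on the HFD.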

How the results depend on the processing

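With the axis score as a covariate 191 probe sets were called on the HFD in place of 2095, 114 higher and 77 lower, so that 40.3% of calls were lower in place of 81.5%. The median differences of fatty acid uptake (0.0239), beta-oxidation (0.0241), mitochondrial DNA upkeep (0.0844) and hepatic transporters (0.0027) turned positive in that fit and that of skeletal muscle markers negative (-0.0427). Under quantile normalization the medians of apolipoproteins (-0.0238) and of the urea cycle list (-0.0214) turned negative. The cause was not tested. A threshold of 2-fold gave 273 calls, 33 higher and 240 lower, and 1.4-fold gave 790 higher, as other thresholds must. Leaving out 1 array gave 1542 to 2522 calls, 260 to 512 higher and 1219 to 2031 lower. Replicate numbers do not pair the livers, and with a replicate block 2092 were called, 381 higher and 1711 lower. The change with diet called 16 probe sets with array weights, and 1 or 2 when an array was left out.

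Of 147 genes named with values, 116 passed. In each alternative but the axis covariate, the methods' t-test and leaving out arrays, at least 115 of them passed, and the 1 lost was *Ppara* under median centring (adjusted p = 0.0544). The methods' t-test lost *Gpam*, *Bhlhe41* and *Hamp* (adjusted p from 0.0503 to 0.0767), leaving out an array lost *Cpt1a*, *Ppara*, *Dld*, *Insr* and *Hamp*, and the axis covariate kept 53. Some genes that did not pass in the main fit passed in more alternatives than those given with them. Among these were *Apob*, *Cpt2*, *Sdha*, *Sucla2*, *Cs*, *Hmox1* and *Tsc22d3*. Signal over background and 6 livers per group limit what dim genes can show.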

Other observations

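Amino acid, nicotinamide and glucocorticoid genes held a few clear changes. *Gpt*, the alanine aminotransferase that links alanine to pyruvate, was at 9.12, 9.26 and 9.56 in WT livers and at 9.88, 10.04 and 10.12 in *Ogg1-/-* livers (lowest, median and highest of 6), without overlap, and rose by 0.72 (SE 0.11, adjusted p = 0.000708, and 0.00626 in the axis fit). Of the 46 genes of the urea cycle and amino acid catabolism, *Gpt* among them, 9 rose, 5 fell and 32 did not pass, with a median difference of 0.06. *Nnmt*, which methylates nicotinamide, was at 10.36, 10.73 and 11.45 in WT and at 11.23, 11.54 and 11.74 in *Ogg1-/-* livers, with overlap, and rose by 0.76 (SE 0.16, adjusted p = 0.00316, and 0.0588 in the axis fit).

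*Nr3c1*, the glucocorticoid receptor gene, fell from 8.22, 8.52 and 8.70 to 7.24, 7.56 and 7.84, by 0.91 (SE 0.18, adjusted p = 0.00293, and 0.0124 in the axis fit), without overlap. Of the 16 targets listed with it, 3 rose and 0 fell, and the largest rise was that of the clock repressor gene *Per1* (1.43), already given above. *Tat* (0.02), *Fkbp5* (0.15) and *Tsc22d3* (0.68, adjusted p = 0.0672) did not pass, although *Tsc22d3* did without WT liver 3 (adjusted p = 0.0108) or *Ogg1-/-* liver 5 (0.0202). *Cdh1*, the cadherin of epithelial junctions that is higher around the portal vein, was at 7.44, 7.95 and 9.02 in WT and at 6.38, 6.86 and 7.47 in *Ogg1-/-* livers, overlapping by a narrow margin, and fell by 1.24 (SE 0.24, adjusted p = 0.00258, and 0.0579 in the axis fit). Of the other 11 periportal genes 1 rose and 1 fell, and of 17 pericentral genes 2 fell.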
